A study of Mus musculus with 48 samples.

Results

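Polyadenylated RNA of skeletal stem cells (SSC) from the limbs of mouse pups was compared between animals with and without deletion of Ptip. The comparison rests on 4 RNA libraries, 2 per genotype, chosen from the 12 RNA libraries of a series of 48 samples by their labels alone, and every gene of the count table was considered. All animals were C57BL/6 mice at postnatal day 3. Animals of the control group, called WT here as in the sample titles, were Ptipf/f, which means that they carried 2 floxed copies of Ptip and, by the label, no Cre recombinase. Animals of the deletion group, called KO, were Ptipf/f;Col2a1-cre and so differed from the controls by the Cre transgene as well as by the recombined alleles. Floxed alleles were common to both groups, and an effect of Cre itself cannot be told apart from an effect of the deletion. The Col2a1 promoter drives Cre in cartilage cells and their precursors, so a cell that never expressed Col2a1 keeps its Ptip. The labels do not say whether the 2 libraries of a genotype came from different animals, pooled litters or repeat preparations, and p-values measure the spread between these libraries only. The other 8 RNA libraries are of 2 descendant populations, pBCSP and BCSP, the pre-progenitors and progenitors of bone, cartilage and stroma, with 2 libraries per genotype each.

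PTIP, the protein of the gene Paxip1, has paired BRCT domains and is a subunit of the MLL3/MLL4 histone methyltransferase complexes, which place methyl groups on lysine 4 of histone H3. Skeletal stem cells of the postnatal growth plate are sorted by surface proteins as cells that can form cartilage, bone and stroma. Growing cartilage has few vessels, and its cells are known to depend on glycolysis and on hypoxia-inducible factors (HIF), which bind DNA next to genes of glucose uptake, glycolytic enzymes and collagen hydroxylation.

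Paxip1, at chr5:27740080-27791672 (RefSeq, GRCm38.p6), was the check of the labels. It had 238 and 198 counts in the WT libraries, 5 in KO replicate 1 and 0 in KO replicate 2. As CPM, which are counts scaled to the library's total after TMM (trimmed mean of M-values) correction and are the level used from here on, these were 13.7 and 11.8 in WT replicates 1 and 2 and 0.347 in KO replicate 1. A count of 0 in KO replicate 2 allows up to 0.166 CPM, the level of 3 counts in that library. The groups did not overlap, and in all 4 libraries the Paxip1 level was the one that the label would give. For KO replicate 2 this is a weak check. Of genes at 10 to 30 CPM in WT replicate 1, 8.50% had no count there, against 0% in KO replicate 1. Counts cover the whole gene, and the floxed exons are not named in the labels. Pairs of values below are always given with replicate 1 before replicate 2, and WT values come before KO values. Partners of PTIP in the complex were present in both genotypes. Kmt2d, the catalytic subunit MLL4, was at 129 and 160.3 CPM in WT and 137 and 78.3 CPM in KO, and Kmt2c, the catalytic subunit MLL3, at 15.4 and 25.0 against 17.7 and 6.54 CPM. In each case KO replicate 1 lay between the WT libraries and KO replicate 2 lay below them.

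The surface genes known from skeletal stem cell sorting gave a mixed check of the cell label. Cd200 was at 289 and 198 CPM in WT and 224 and 303 CPM in KO, and Eng, which encodes CD105, at 27.8 and 25.1 against 29.5 and 27.8 CPM. Itgav, the alpha V integrin that defines this lineage, was at 59.9 and 64.2 CPM in WT, 64.4 CPM in KO replicate 1 and 16.5 CPM in KO replicate 2. Thy1, which such cells lack, had no count in 3 libraries and 0.0693 CPM in KO replicate 1, and Ptprc, which encodes the leukocyte protein CD45, had no count in 3 libraries and 0.0597 CPM in WT replicate 2. The 4 libraries therefore held Cd200 and Eng and almost no Thy1 or Ptprc, and KO replicate 2 held less Itgav than the others. Of the 7 tested genes in the list of sorting surface genes, 4 had no count in KO replicate 2. Among all 17494 tested genes 4874 had no count in that library.

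The libraries were of like depth, 15495915 to 18090139 counts on genes. They were not alike in how many genes they detected. WT replicates 1 and 2 and KO replicate 1 had at least 1 count for 21973, 22339 and 21225 genes, KO replicate 2 for 13987, and the other 8 RNA libraries of the series for 20965 to 23831. With each SSC library thinned to 15495915 counts, KO replicate 2 detected 13857 genes against 21147 to 22339 in the other 3. Its share of counts on mitochondrial genes, 0.792%, was close to the 0.731 to 0.738% of the others, and its 100 most counted genes took 36.9% of the counts against 27.3 to 33.5%. Sex-linked genes also separated the libraries: the X-inactivation RNA Xist had 169, 0, 2 and 33 counts in the order WT 1, WT 2, KO 1, KO 2, and Y-linked Ddx3y had 1352, 3138, 2712 and 2329. WT replicate 1 and KO replicate 2 thus held both kinds of RNA.

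Loss of detection in KO replicate 2 reached genes well above the level that its depth allows to be missed. Of 2333 genes at 1 to 3 CPM in WT replicate 1, 47.7% had no count in KO replicate 2, against 1.5% in KO replicate 1 and 15 genes in WT replicate 2. At 3 to 10 CPM the share was 26.0% of 3035 genes, and at 10 to 30 CPM it was 8.50% of 3354, where KO replicate 1 and WT replicate 2 had no gene at 0. Even at 30 to 100 CPM, 56 of 2988 genes had no count in KO replicate 2. Among the 546 genes at 300 CPM or more none was at 0, but 6.04% were at less than 0.1 of their WT replicate 1 level, against 0 genes in KO replicate 1 and 0.366% in WT replicate 2.

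**Figure D1:**
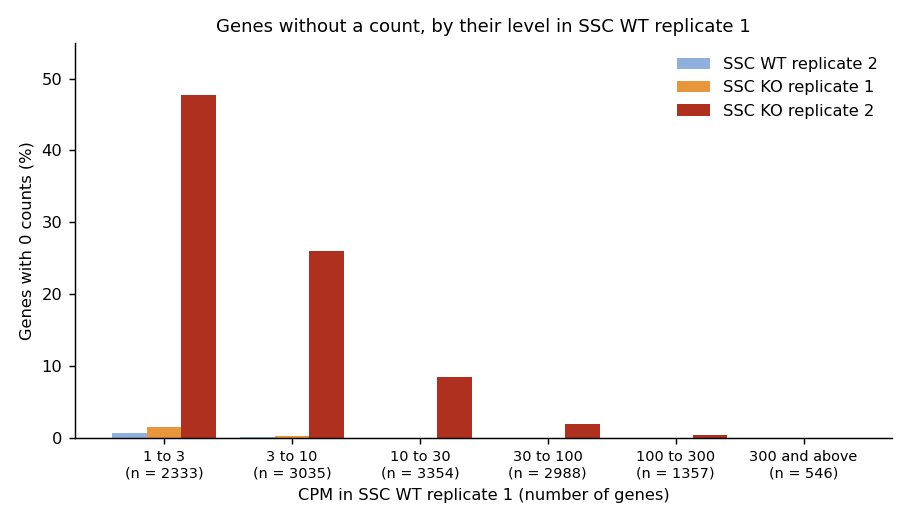
Share of genes with 0 counts (y axis, %) in 3 SSC libraries, by the level of the gene in WT replicate 1 (x axis, CPM, with the number of genes per bin). Bars of KO replicate 2 stand at 47.7%, 26.0% and 8.50% in the lowest 3 bins, where the other libraries are at 1.5% or less.

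Replicates of the KO group were correspondingly further apart than those of the WT group. The median absolute log2 difference between replicates over 17494 tested genes was 0.374 for WT and 0.98 for KO, and for genes at 300 CPM or more it was 0.230 and 0.643. For this reason each KO library was set against the WT libraries on its own: a per-library difference is log2(CPM + 0.5) in that KO library minus the mean of the 2 WT libraries, and it understates the change of low genes. Its median over all tested genes was −0.04 for KO replicate 1 and −0.49 for KO replicate 2. Scaling by total counts in place of TMM moved these to −0.20 and −0.51, so small list medians carry that uncertainty.

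In the comparison SSC KO against WT, edgeR's quasi-likelihood test over the 12 RNA libraries called 0 of 17494 genes (0%) at a Benjamini-Hochberg adjusted p of 0.05, and the smallest adjusted p was 0.524. At an unadjusted p under 0.05 it counted 1643 genes, 999 higher (5.71%) and 644 lower (3.68%) in KO. DESeq2 on the same libraries called 134 genes higher (0.766%) and 40 lower (0.229%). Leaving out KO replicate 1, so that KO replicate 2 alone stood for the KO group and was assumed to vary like the other groups, gave 5908 edgeR calls, 1685 higher and 4223 lower. Leaving out any other of the 12 libraries gave 0 calls and 459 to 1697 genes at an unadjusted p under 0.05. Because no gene passed the main test, levels below are given as values, with the log2 difference of the fit and its standard error (SE), and a gene is called above or below WT only where both KO libraries lay beyond both WT libraries.

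By that count 2397 genes (13.7%) were above both WT libraries in both KO libraries and 4511 (25.8%) were below. With total-count scaling the split was 1754 above and 5576 below. Among the 8304 genes at a mean of 10 CPM or more, which are less touched by the missing genes of KO replicate 2, it was 1556 (18.7%) and 1831 (22%). Each KO library alone lay outside the WT pair far more often: KO replicate 1 was above both for 34.7% and below both for 36% of these genes, and KO replicate 2 for 40.2% and 48.2%. Across 41 gene lists, 11 had a median above 0 in both KO libraries and 19 had one below 0 in both. Glycolysis, HIF targets and cartilage matrix were at the top of that order, and Schwann cell, glucocorticoid response and Notch genes were near its bottom.

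**Figure D2:**
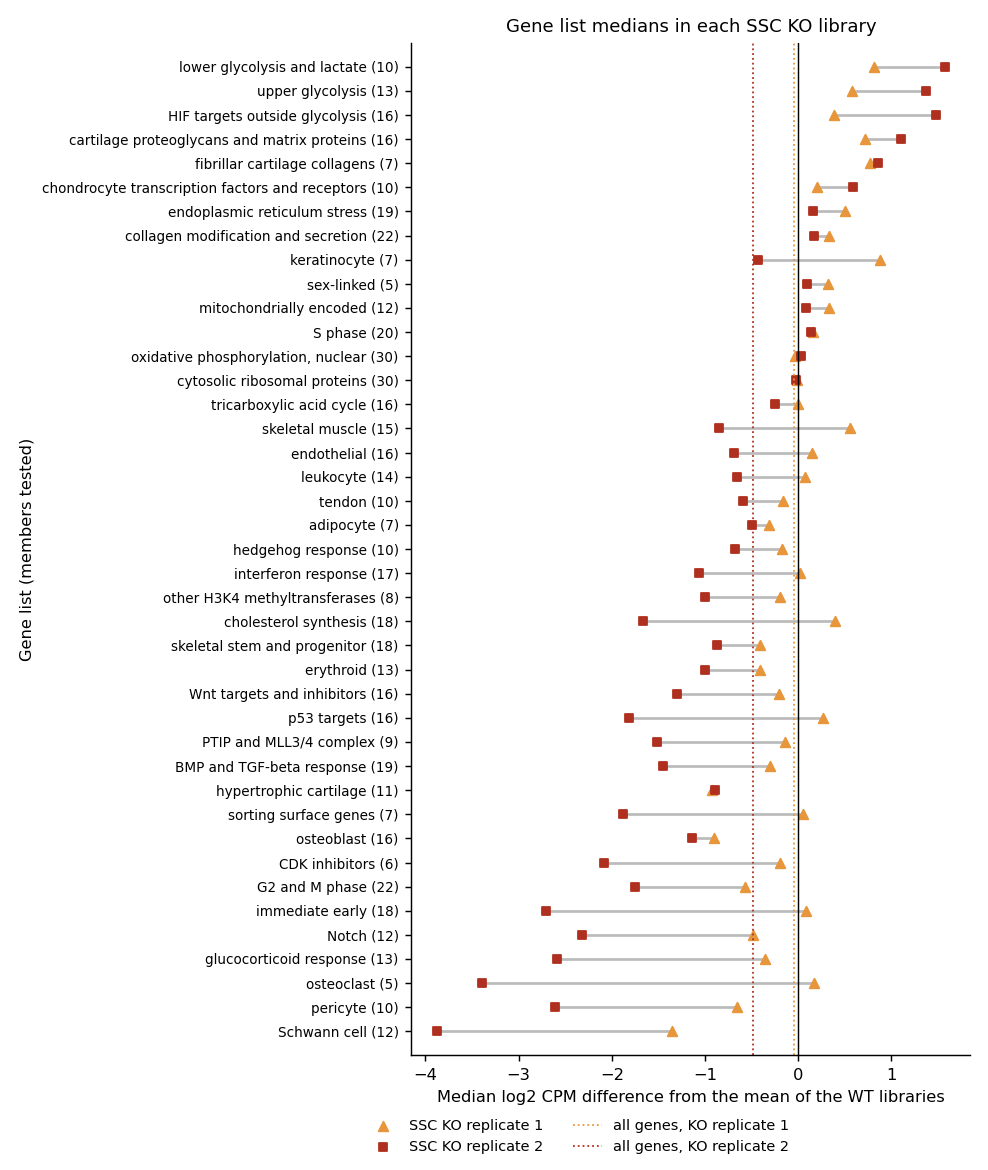
Median per-library log2 CPM difference from the WT mean (x axis) for 41 gene lists (y axis, number of tested members in parentheses), with triangles for KO replicate 1 and squares for KO replicate 2. Dotted lines mark the medians over all genes, −0.04 and −0.49, and the 2 libraries lie close together for cartilage collagens and far apart for immediate early and glucocorticoid response genes.

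Most glycolytic genes lay above WT in both KO libraries. Of 13 genes of the upper pathway, from glucose uptake to triose phosphates, 7 were above WT and none below, with medians of 0.58 and 1.37 in KO replicates 1 and 2. Of 10 genes of the lower pathway, from glyceraldehyde phosphate to lactate export, 8 were above WT and none below, with medians of 0.81 and 1.57. Over all genes the medians were −0.04 and −0.49, and 13.7% of genes were above WT. At 10 CPM or more, where nearly all of these glycolytic genes lay, the medians were −0.009 and −0.116 and 18.7% of genes were above. At an unadjusted p under 0.05 in edgeR, 7 of the 13 and 8 of the 10 were higher and none was lower, and DESeq2 called 2 and 3 of them.

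Members of this pathway are shown from the first step on. Slc2a1, the glucose transporter GLUT1, was at 239.8 and 131 CPM in WT and 265 and 287 CPM in KO, a gap smaller than that between the WT libraries. Hk2, a hexokinase that traps glucose in the cell, was at 74.6 and 49.1 against 68.8 and 47.8 CPM, and its groups overlapped. Gpi1, glucose phosphate isomerase, was at 128 and 112 CPM in WT and 277 and 309 CPM in KO, a log2 difference of 1.29 ± 0.22 (SE) with libraries of a genotype close together. Among these first steps Hk2 showed no separation of the genotypes and Gpi1 a clear one. Pfkl, the liver-type phosphofructokinase that catalyses the committed step, was at 238 and 75.5 CPM in WT and 436 and 901 CPM in KO, so WT replicate 2 stood far below WT replicate 1. Aldolase A (Aldoa) was at 571 and 395 against 934 and 1395 CPM, and Tpi1, triose phosphate isomerase, at 412 and 212 against 799.7 and 1997 CPM. In these 3 genes the order of the 4 libraries was the same, lowest in WT replicate 2 and highest in KO replicate 2.

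That order was also seen in the lower pathway. Pgk1, phosphoglycerate kinase, which makes the first ATP of the pathway, was at 240.2 and 156 CPM in WT and 418 and 755 CPM in KO (1.57 ± 0.39 SE, log2). Eno1, enolase, was at 1906 and 1168 against 3423 and 5288 CPM (1.50 ± 0.39 SE, log2). Pkm, pyruvate kinase, was at 1020.4 and 775 against 1716 and 2236 CPM (1.14 ± 0.30 SE, log2). Each of these genes was above both WT libraries in KO replicate 1 and higher still in KO replicate 2. Ldha, which turns pyruvate into lactate, was at 1186 and 644 CPM in WT and 1949 and 3086 CPM in KO. Slc16a3, the lactate exporter MCT4, was at 83.5 and 39.8 against 164 and 391 CPM, whereas Slc16a1, the related transporter MCT1, was at 108 and 109.8 against 117 and 63.1 CPM and overlapped. Gapdh, glyceraldehyde phosphate dehydrogenase, was at 48.1 and 41.8 against 64.0 and 107 CPM. Gapdh, Pgk1, Eno1, Tpi1 and Ldha have near-identical pseudogene copies in the mouse genome, and their levels are uncertain where reads were shared or dropped in counting.

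HIF targets outside glycolysis followed the same direction with more spread. Of 16 genes, 9 were above WT and none below, 8 had an unadjusted p under 0.05 in edgeR, all higher, and the medians were 0.38 and 1.48. Among all genes at 10 CPM or more, 18.7% were above WT and 22% below. Car9, the membrane carbonic anhydrase IX, was at 38.1 and 39.8 CPM in WT and 166 and 291 CPM in KO (2.55 ± 0.50 SE, log2) with the WT libraries nearly equal. P4ha1, the catalytic subunit of collagen prolyl hydroxylase, was at 386 and 354 against 932 and 857 CPM (1.28 ± 0.25 SE, log2). Its 2 KO libraries were as close together as its 2 WT libraries. Bnip3, which marks mitochondria for removal, was at 537 and 281 against 863 and 2706 CPM, Higd1a, a mitochondrial hypoxia-induced protein, at 401 and 384 against 573 and 1343 CPM, and Pdk1, the kinase that shuts off pyruvate dehydrogenase, at 64.8 and 53.7 against 97.1 and 126 CPM. Other HIF targets did not share this. Vegfa, the vascular growth factor, was at 13.0 and 9.97 CPM in WT and 10.1 and 40.6 CPM in KO, high in KO replicate 2 alone. Ndrg1 was at 156 and 166 against 162 and 80.3 CPM, and Bhlhe40, a transcriptional repressor, was at 1432 and 977 CPM in WT, 1274 CPM in KO replicate 1 and 141 CPM in KO replicate 2.

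**Figure D3:**
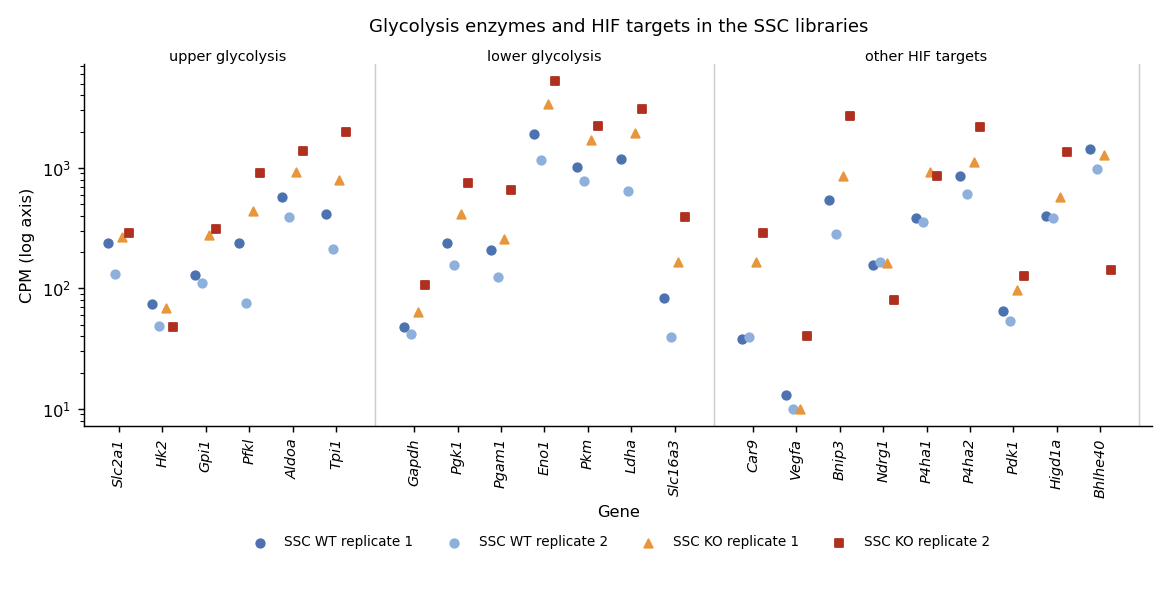
CPM (y axis, log scale) of glycolysis enzymes and other HIF targets (x axis) in each SSC library. Circles are WT and triangle and square are KO replicates 1 and 2, and KO symbols lie above both circles for Gpi1, Pgk1, Ldha, Car9 and P4ha1 but not for Hk2, Ndrg1 or Bhlhe40.

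ACGTG is one form of the short core motif that HIF binds, and promoters of 4 of these genes are shown as examples that hold it. Only this form was searched, so copies of the other form, GCGTG, are neither marked nor counted. Each is the 250 bases before the RefSeq start on GRCm38.p6, read 5′ to 3′ on the strand of the gene, and capitals mark ACGTG or its reverse complement CACGT. Where both share letters they make CACGTG, which counts as 2 overlapping matches. The windows are chrX:106186850-106187099 for Pgk1, chr7:46845554-46845803 for the first listed start of Ldha, chr10:59323046-59323295 for P4ha1 and chr4:43506776-43507025 for Car9, all on the plus strand.
Pgk1: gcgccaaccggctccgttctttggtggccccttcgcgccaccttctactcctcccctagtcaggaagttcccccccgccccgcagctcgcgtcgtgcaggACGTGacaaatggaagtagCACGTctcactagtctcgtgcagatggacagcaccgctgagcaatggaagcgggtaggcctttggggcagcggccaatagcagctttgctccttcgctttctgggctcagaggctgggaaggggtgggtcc
Ldha: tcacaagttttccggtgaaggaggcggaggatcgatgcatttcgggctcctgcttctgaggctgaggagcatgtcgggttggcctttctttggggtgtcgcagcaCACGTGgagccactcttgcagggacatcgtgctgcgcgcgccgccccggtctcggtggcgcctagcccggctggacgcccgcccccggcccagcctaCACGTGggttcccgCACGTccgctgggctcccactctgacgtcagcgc
P4ha1: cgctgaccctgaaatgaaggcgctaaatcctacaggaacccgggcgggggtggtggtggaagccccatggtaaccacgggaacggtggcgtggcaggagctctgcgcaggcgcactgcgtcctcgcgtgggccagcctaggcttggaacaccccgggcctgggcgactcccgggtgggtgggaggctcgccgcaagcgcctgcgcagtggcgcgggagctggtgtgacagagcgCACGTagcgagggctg
Car9: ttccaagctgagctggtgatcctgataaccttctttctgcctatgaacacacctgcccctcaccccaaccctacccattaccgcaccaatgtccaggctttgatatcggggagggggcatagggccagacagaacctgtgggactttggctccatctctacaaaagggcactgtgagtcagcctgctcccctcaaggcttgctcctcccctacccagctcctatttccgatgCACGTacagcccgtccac
Pgk1 held 2 matches and Ldha 5, and P4ha1 and Car9 held 1 each, which began 16 and 18 bases before the start. The windows of Gpi1, Tpi1, all 3 listed starts of Eno1 and the second listed start of Ldha held none. Among the tested genes with a listed promoter, 24.35% (2895 of 11890) held at least 1 match in this window, counting any listed start. By the same count it was 5 of 12 upper glycolysis genes, 6 of 10 lower glycolysis genes, 9 of 13 other HIF targets, 2 of 12 cartilage matrix genes and 1 of 5 cartilage collagen genes. A match says only that these letters occur in the window.

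Genes of mitochondrial respiration lay on both sides of WT. Of 30 nuclear genes of oxidative phosphorylation 7 were above WT, 7 below and 16 overlapped, where 18.7% and 22% of genes at 10 CPM or more were above and below, 1 each way had an unadjusted p under 0.05 in edgeR, and the medians were −0.04 and 0.03. Atp5b, the catalytic beta subunit of ATP synthase, was at 827 and 734 CPM in WT and 784 and 767 CPM in KO, and Cox4i1, a subunit of cytochrome oxidase, at 476 and 437 against 426 and 466 CPM. Both genes overlapped, and their libraries lay within a narrow range. Relatives of 2 respiratory subunits were on the side of the HIF targets. Cox4i2, the hypoxia-linked form of the Cox4i1 subunit, was at 38.4 and 30.1 against 88.9 and 228 CPM, and Ndufa4l2, a HIF-induced relative of Ndufa4, at 231 and 181 against 718 and 1766 CPM (2.59 ± 0.50 SE, log2), while Ndufa4 itself was at 116 and 95.5 against 86.5 and 69.2 CPM. Of 12 mitochondrially encoded genes 5 were above and 1 below WT, with medians of 0.33 and 0.08. Of 16 tricarboxylic acid cycle genes 2 were above and 4 below WT. Of 30 cytosolic ribosomal protein genes, whose many pseudogenes make their counts uncertain, 25 overlapped, and the medians of −0.01 and −0.02 changed sign with the scaling.

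Most genes of cartilage matrix also lay above WT in both KO libraries. Of 7 cartilage collagen genes 6 were above WT and none below, with medians of 0.77 and 0.86, and of 16 further matrix genes 10 were above and 1 below, with medians of 0.71 and 1.10. Among all genes at 10 CPM or more, 18.7% were above and 22% below. At an unadjusted p under 0.05 in edgeR, 2 of the 7 and 7 of the 16 were higher, and 1 of the 16 was lower. The one collagen that did not follow was Col2a1, the main collagen of cartilage and the gene whose promoter drives Cre, at 58089 and 36491 CPM in WT and 37783 and 23645 CPM in KO, so that KO replicate 2 was the lowest library. Col9a1, a chain of the collagen that coats these fibrils, was at 7209 and 4637 CPM in WT and 11440.5 and 9525 CPM in KO (0.82 ± 0.37 SE, log2), and Col9a3 at 6822 and 3866 against 10548 and 10357 CPM (0.97 ± 0.37 SE, log2). Col11a1, which sets fibril diameter, was at 2691 and 1990.1 against 3374 and 4198 CPM. In these 3 genes both KO libraries were above WT replicate 1, which in turn was above WT replicate 2.

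Non-collagen proteins of the matrix included the genes of this group with the clearest separation. Matn1, the linker protein matrilin 1, was at 1096 and 568 CPM in WT and 2615 and 6400.4 CPM in KO (2.44 ± 0.56 SE, log2). Ucma, a small protein of the upper growth plate, was at 1938 and 1206 against 4655 and 6909 CPM (1.88 ± 0.45 SE, log2), and Epyc, the small proteoglycan epiphycan, at 549 and 239 against 987 and 4201 CPM (2.72 ± 0.78 SE, log2). DESeq2 called these 3, with adjusted p-values of 0.0149, 0.0243 and 0.0461. Cnmd, the antiangiogenic protein chondromodulin, was at 11046 and 6591 CPM in WT and 18097 and 26090.4 CPM in KO, and Matn3 was at 3247 and 1745 against 4964 and 5133 CPM. Acan, the large aggregating proteoglycan, was at 573 and 434 CPM in WT, 571 CPM in KO replicate 1 and 1062 CPM in KO replicate 2, and overlapped. Comp, which cross-links the matrix, and Chad, a cell-binding matrix protein, were at 4477 and 2696 CPM (Comp) and 9343 and 2995 CPM (Chad) in WT, against 4712 and 1906 CPM and 7084 and 2841 CPM in KO, with no separation. Prg4, the lubricin of the joint surface, was the member below WT, at 1449.8 and 1735 CPM in WT and 752 and 707 CPM in KO (−1.13 ± 0.25 SE, log2, DESeq2 adjusted p = 0.00659).

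Transcription factors and receptors of chondrocytes were divided. Sox9, the master factor of cartilage, was at 3777 and 2139 CPM in WT and 3338 and 3999 CPM in KO and overlapped. Its partner Sox5 was at 155 and 141 against 228 and 411 CPM (1.11 ± 0.36 SE, log2), and Zbtb20, a repressor active in hypertrophy, at 198 and 162 against 346 and 521 CPM (1.27 ± 0.34 SE, log2). Fgfr3, the receptor that restrains growth plate proliferation, was at 261 and 151 against 219 and 93.6 CPM with overlap. Of the 10 genes of this list 3 were above and 1 below WT, where 18.7% and 22% of genes at 10 CPM or more were.

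**Figure D4:**
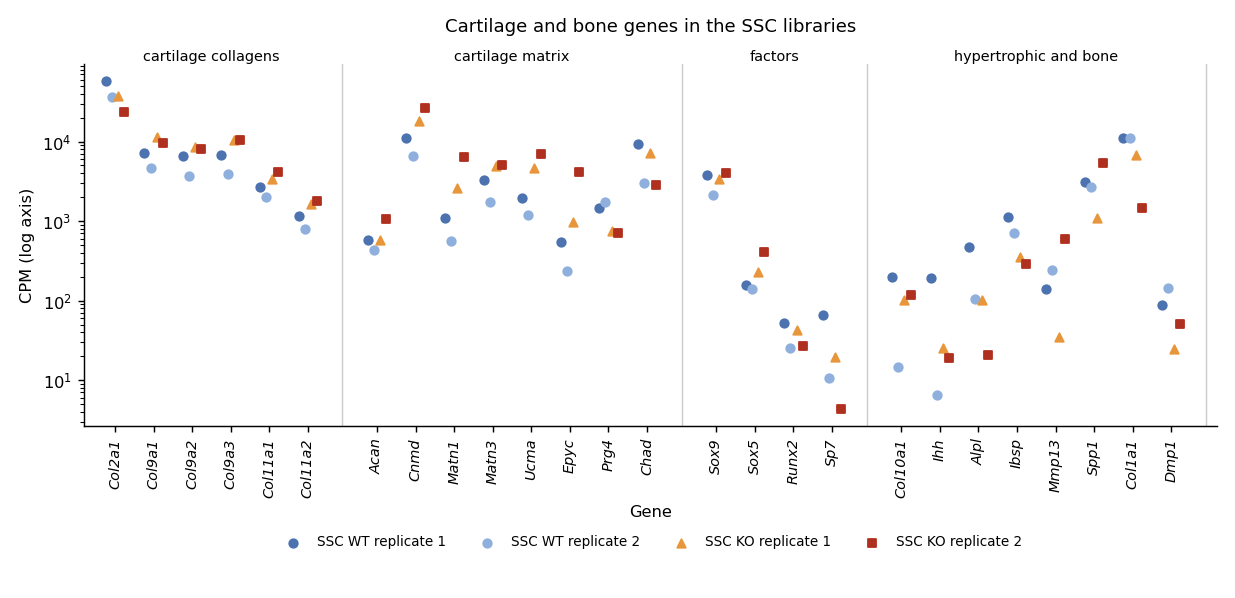
CPM (y axis, log scale) of cartilage and bone genes (x axis) in each SSC library, symbols as for glycolysis. KO symbols lie above both WT circles for Col9a1, Matn1, Ucma and Epyc and below both for Prg4, Ibsp and Col1a1, and the WT circles themselves are far apart for Col10a1, Ihh and Alpl.

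Genes of hypertrophic cartilage mostly overlapped between the genotypes. Of 11 such genes none was above WT, 4 were below and 7 overlapped, and the medians were −0.92 and −0.90. All were at 10 CPM or more, where 22% of genes were below. Ihh, the hedgehog signal of prehypertrophic cells, was at 191 and 6.45 CPM in WT and 25.2 and 19.1 CPM in KO, Col10a1, the collagen of hypertrophic cells, at 199 and 14.7 against 103 and 119 CPM, and the channel protein gene Panx3 at 313 and 18.1 against 77.6 and 68.5 CPM. For all 3 the KO libraries lay between the WT libraries, with WT replicate 1 high and WT replicate 2 low. Enpp1 and Ank, which make and export pyrophosphate, an inhibitor of mineral, were instead below WT, at 427 and 383 CPM (Enpp1) and 93.8 and 84.6 CPM (Ank) in WT, against 198 and 59.0 CPM and 46.8 and 39.7 CPM in KO.

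Of 16 osteoblast genes 9 were below WT and 1 was above (5 and 1 of the 10 at 10 CPM or more), with medians of −0.90 and −1.14, and 2 had an unadjusted p under 0.05 in edgeR, both lower. Over all genes 25.8% were below and 13.7% above, and at 10 CPM or more 22% and 18.7%. Col1a1, the main bone collagen chain, was at 10933 and 11163 CPM in WT, 6816 CPM in KO replicate 1 and 1470 CPM in KO replicate 2, and Col1a2, its partner chain, at 2774 and 2998 against 2358 and 1675 CPM. Ibsp, bone sialoprotein, was at 1139 and 714 against 353 and 292 CPM, and Dmp1, a mineral-nucleating protein of osteocytes, at 89.3 and 146 against 24.9 and 50.2 CPM. Both chains of type I collagen were lowest in KO replicate 2, and Dmp1 was lowest in KO replicate 1. The bone factors Runx2 and Sp7 were at 51.9 and 25.2 CPM (Runx2) and 65.1 and 10.7 CPM (Sp7) in WT, against 42.8 and 26.7 CPM and 19.4 and 4.32 CPM in KO, and neither separated. Spp1, osteopontin, was at 3104 and 2688 CPM in WT, 1103 CPM in KO replicate 1 and 5415 CPM in KO replicate 2, so the KO libraries lay on opposite sides of WT. Sparc, the collagen-binding protein osteonectin, was the one member above WT, at 23936 and 16848 against 26972 and 24853 CPM.

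Of 18 tested genes of skeletal stem and progenitor cells 8 were below and 3 above WT, with medians of −0.41 and −0.87, against −0.04 and −0.49 over all genes. In KO replicate 2, 6 of the 18 had no count, where 4874 of all 17494 tested genes had none. Of the 10 list members at 10 CPM or more 4 were below and 3 above, where 22% and 18.7% of all such genes were. The medians of these 10 were −0.30 and −0.17. Pdgfra, a receptor of mesenchymal progenitors, was at 37.4 and 55.7 CPM in WT and 41.7 and 38.0 CPM in KO, and the limb mesenchyme factor Prrx1 at 33.0 and 24.8 against 20.6 and 58.4 CPM. Neither separated. Cxcl12, the chemokine of marrow stroma, was at 28.1 and 47.0 against 16.7 and 5.82 CPM, and Pthlh, the signal by which resting cells keep the growth plate from maturing, at 29.2 and 53.1 against 13.8 and 16.5 CPM (−1.44 ± 0.56 SE, log2). Both were below WT in each KO library. Lepr, the leptin receptor, was at 14.7 and 7.82 against 16.1 and 49.1 CPM, and Msx1, a homeobox factor of undifferentiated limb cells, at 19.1 and 22.1 against 46.9 and 31.6 CPM, above WT in each KO library.

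Genes for collagen modification and secretion lay above WT more often than below. Of 22 genes 10 were above WT and 2 below, where 18.7% and 22% of genes at 10 CPM or more were. At an unadjusted p under 0.05 in edgeR 5 were higher and none lower, where 5.71% of all genes were higher, and the medians were 0.33 and 0.16. Serpinh1, the collagen chaperone HSP47, was at 5518 and 4135 CPM in WT and 8633 and 8207 CPM in KO (0.80 ± 0.33 SE, log2), and P4ha2, a second prolyl hydroxylase subunit, at 859 and 608 against 1112 and 2192 CPM. Crtap and P3h1, partners in prolyl 3-hydroxylation, were at 365 and 287 CPM (Crtap) and 814 and 520.2 CPM (P3h1) in WT, against 526 and 557 CPM and 1012 and 1102 CPM in KO. In KO replicate 1 Serpinh1 was about as high as in KO replicate 2, whereas P4ha2 was not. Lox, which cross-links collagen, was on the other side, at 96.1 and 105 against 55.4 and 38.8 CPM.

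Genes of endoplasmic reticulum folding and stress were 8 above and 0 below WT of 19, with medians of 0.50 and 0.16. Among all genes at 10 CPM or more, 18.7% were above and 22% below. The 6 with an unadjusted p under 0.05 in edgeR were all higher. Pdia4 and Pdia6, disulfide isomerases, were at 353 and 295 CPM (Pdia4) and 1078 and 762 CPM (Pdia6) in WT, against 703 and 1089 CPM and 1560.0 and 2024 CPM in KO, and Hsp90b1, the chaperone GRP94, at 516 and 654 against 822 and 1184 CPM. Hspa5, the chaperone BiP, was at 2459.9 and 2839.7 against 3270.2 and 2648 CPM and overlapped, as did the stress factors Atf4, at 245 and 298 against 338 and 133 CPM, and Xbp1, at 654 and 678 against 1056 and 448 CPM. Pdia4, Pdia6 and Hsp90b1 were thus above WT in both KO libraries, and Hspa5, Atf4 and Xbp1 were not.

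Most mitotic genes lay below WT in both KO libraries. Of 22 genes active in G2 and mitosis 16 were below WT and none above, where 25.8% of all genes were below, and the medians were −0.57 and −1.75. At an unadjusted p under 0.05 in edgeR 7 were lower and none was higher, and none was called by DESeq2. Cdc20, the activator of the anaphase-promoting complex, was at 103 and 121 CPM in WT and 53.4 and 22.7 CPM in KO (−1.56 ± 0.58 SE, log2). Birc5, survivin, was at 35.6 and 38.6 against 24.9 and 16.2 CPM, and Kif20a, a kinesin of cytokinesis, at 18.8 and 18.3 against 10.6 and 9.76 CPM (−0.87 ± 0.36 SE, log2), with both KO libraries close together. For Ccnb1, cyclin B1, the level was 63.4 and 84.6 CPM in WT, 40.2 CPM in KO replicate 1 and 0.222 CPM in KO replicate 2. Mki67, the proliferation marker Ki-67, was at 6.57 and 14.9 against 4.30 and 0.277 CPM. Cdk1, the mitotic kinase, and Tpx2, a spindle assembly factor, overlapped, at 68.6 and 106 CPM (Cdk1) and 30.2 and 43.9 CPM (Tpx2) in WT, against 78.9 and 21.8 CPM and 35.3 and 16.1 CPM in KO.

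S phase genes did not share this pattern. Of 20 genes 5 were above and 2 below WT, where 13.7% and 25.8% of all genes were. Pcna, the replication clamp, was at 109 and 127 CPM in WT and 119 and 113 CPM in KO, and Rrm2, a subunit of ribonucleotide reductase, at 72.4 and 52.3 against 91.4 and 77.8 CPM. Rrm1, the other subunit, was at 75.3 and 69.4 against 54.1 and 26.4 CPM, so the 2 subunits lay on opposite sides of WT. Cdk6, the kinase of G1, was below WT at 154 and 147 against 64.3 and 21.8 CPM, and Cdkn1c, the imprinted inhibitor p57, was above at 1518 and 787 against 1873 and 2239 CPM. Cdkn1a, the inhibitor p21, was at 923 and 869 CPM in WT, 1124 CPM in KO replicate 1 and 231 CPM in KO replicate 2.

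Lists of signalling pathways held genes on both sides of WT. Of 16 Wnt targets and inhibitors 4 were above and 9 below WT, with medians of −0.21 and −1.30, and 4 had no count in KO replicate 2. Over all genes 13.7% were above and 25.8% below, and 4874 of 17494 had no count in KO replicate 2. Of the 10 Wnt list members at 10 CPM or more 3 were above and 4 below, and their medians were 0.05 and −0.96, so the value for KO replicate 1 changed sign. Frzb, a secreted Wnt antagonist of cartilage, was at 150.4 and 85.1 CPM in WT and 222 and 734 CPM in KO (2.02 ± 0.53 SE, log2), and the related antagonist Sfrp5 at 32.8 and 23.9 against 84.6 and 420.4 CPM (3.15 ± 0.90 SE, log2). Nkd1, a feedback inhibitor induced by Wnt, was at 61.4 and 69.3 against 34.9 and 34.9 CPM, and Axin2, the standard readout of the pathway, was at 3.52 and 4.66 against 2.01 and 0.610 CPM. Both feedback genes were below WT in each KO library, and both secreted antagonists were above. DESeq2 called Frzb and Sfrp5, with adjusted p-values of 0.0498 and 0.0356.

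Of 19 genes of the BMP and TGF-beta response 2 were above and 7 below WT, where 13.7% and 25.8% of all genes were, and 2 were higher and 5 lower at an unadjusted p under 0.05 in edgeR. The medians were −0.30 and −1.45, and −0.11 and −1.43 for the 16 at 10 CPM or more. Id2, a target that blocks helix-loop-helix factors, was at 408 and 448 CPM in WT and 308 and 191 CPM in KO (−0.78 ± 0.28 SE, log2), Id4 at 37.7 and 35.9 against 17.3 and 15.2 CPM, and Bambi, a decoy receptor, at 184 and 191 against 113 and 38.9 CPM. Ccn2, connective tissue growth factor, was at 70.9 and 82.5 against 51.4 and 27.7 CPM. These 4 were below WT in both KO libraries. Bmp3, a family member known to restrain bone formation, was above, at 42.5 and 39.9 against 128 and 307 CPM (2.40 ± 0.43 SE, log2). Of 12 Notch genes 4 were below and none above WT, but 6 of the 12 had no count in KO replicate 2, and of the 4 at 10 CPM or more 1 was below. Among all 17494 tested genes 4874 had no count in that library. Hes1, the main Notch target, was at 111 and 118 CPM in WT, 123 CPM in KO replicate 1 and 8.87 CPM in KO replicate 2. Hedgehog response genes overlapped for 9 of 10.

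Genes that separated best by the fit were looked at whatever list they belonged to. The 12 genes above and the 12 below WT with the smallest unadjusted p at a mean of 10 CPM or more were chosen on these libraries, so their values are a description. Among the 12 above, besides Gpi1, P4ha1, Car9, Ndufa4l2, Cox4i2 and Bmp3, Smoc2 (chr17:14279490-14404790), a matricellular calcium-binding protein, was first, at 748 and 708 CPM in WT and 2818 and 3249.9 CPM in KO (2.06 ± 0.32 SE, log2, edgeR adjusted p = 0.524, DESeq2 adjusted p = 4.19e-05). Mest, an imprinted gene expressed from the paternal copy in mesoderm, was at 1298 and 1253 CPM in WT and 3369.7 and 2960.5 CPM in KO (1.31 ± 0.26 SE, log2). Ifi27, an interferon-inducible gene, was at 50.2 and 34.0 against 129 and 169 CPM, Usp11, a deubiquitinase, at 19.0 and 11.6 against 53.2 and 65.9 CPM, Armh4 at 100.3 and 108 against 296 and 554 CPM and Glt8d2 at 39.5 and 29.9 against 76.5 and 97.6 CPM. All 12 had both KO libraries above both WT libraries, as the choice requires, with fitted folds of 2.42 to 6.03, and DESeq2 called all 12 with adjusted p-values up to 0.00479.

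Among the 12 below, Agfg2 was first, at 60.6 and 79.2 CPM in WT and 17.0 and 18 CPM in KO (−2.0 ± 0.41 SE, log2), and Stk32b, a serine/threonine kinase, was at 88.6 and 70.0 against 24.9 and 26.7 CPM. Deptor, an inhibitor bound to mTOR, was at 199 and 183 against 92.1 and 60.5 CPM, and Fzd1, a Wnt receptor, at 69.2 and 78.3 against 41.9 and 28.8 CPM. Shisa2, which holds Wnt and FGF receptors in the endoplasmic reticulum, was at 122 and 112 against 55.1 and 28.2 CPM, and Exosc8, a subunit of the RNA exosome, at 30.7 and 37.6 against 17.6 and 12.3 CPM. For Agfg2, Stk32b and Prg4 the KO libraries were nearly equal, whereas Cdk6 and Frmd8 were lower in KO replicate 2 than in KO replicate 1. Gjc3, a connexin of myelinating glia, was at 51.5 and 90.1 against 19.9 and 21.2 CPM, Ei24 at 44.8 and 47.6 against 18.5 and 16.2 CPM, Frmd8 at 70.8 and 69.1 against 27.8 and 9.65 CPM and Tspan17 at 25.3 and 22.3 against 7.56 and 4.10 CPM. DESeq2 called 11 of these 12, with Deptor as the exception at an adjusted p of 0.0904.

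**Figure D5:**
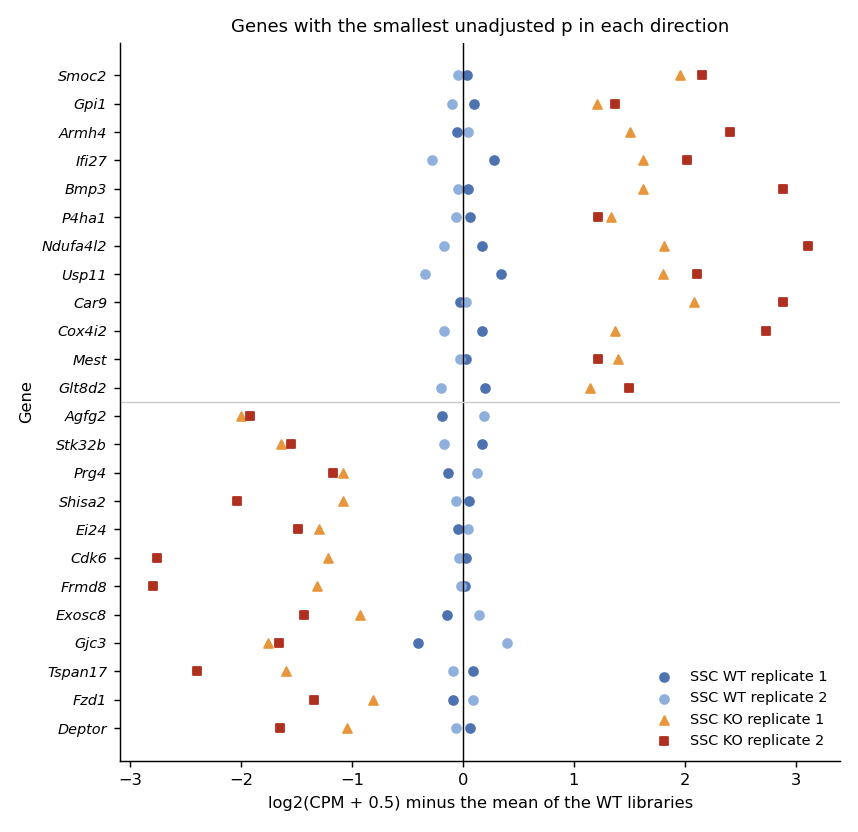
log2(CPM + 0.5) minus the mean of the WT libraries (x axis) for the 24 genes with the smallest unadjusted p (y axis, 12 above and 12 below WT), one symbol per library. The WT circles lie within 0.5 of 0, and both KO symbols lie beyond them on one side, as the choice of genes requires.

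Between the KO libraries the largest differences concerned fast-response genes. All 18 immediate early genes, which cells switch on soon after a stimulus, were below both WT libraries in KO replicate 2, where 48.2% of genes at 10 CPM or more were, while in KO replicate 1 5 were below and 5 above. Their summed level was 21842 and 16358 CPM in WT, 21113 CPM in KO replicate 1 and 3795 CPM in KO replicate 2. Fos was at 2711 and 2744 CPM in WT and 2613 and 351 CPM in KO, Egr1 at 2491 and 1970.4 against 3088 and 381 CPM and Junb at 2912 and 1649.5 against 2973 and 246 CPM. The first 3 libraries were alike in these genes and KO replicate 2 stood alone.

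Glucocorticoid-induced genes were low in KO replicate 2 and partly so in KO replicate 1. Of 13 genes 10 were below WT in both KO libraries and none above, with medians of −0.36 and −2.58 and summed levels of 8993.3 and 7108.4 CPM in WT and 7221.7 and 1049.8 CPM in KO. Over all genes 25.8% were below. Fkbp5, a chaperone partner of the receptor, was at 194 and 166 CPM in WT and 45.6 and 20.9 CPM in KO (−2.44 ± 0.71 SE, log2), and Mt1, metallothionein 1, at 143 and 178 against 88.2 and 71.4 CPM (−1.01 ± 0.36 SE, log2). Pdk4, which spares glucose carbon, was at 30.9 and 32.7 against 12.1 and 11.3 CPM (−1.44 ± 0.45 SE, log2). These 3 were low in both KO libraries. Errfi1, a feedback inhibitor of the EGF receptor, and Sgk1, a kinase of salt balance, were far lower in KO replicate 2 than in the other 3 libraries, at 44.9 and 1.28 CPM, against 2229 and 1973 CPM (Errfi1) and 322 and 435 CPM (Sgk1) in WT and 2554 and 287 CPM in KO replicate 1. Sgk1 was thus below WT in both KO libraries and Errfi1 in KO replicate 2 only.

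Genes of cholesterol synthesis and p53 targets put the KO libraries on opposite sides. The median of 18 cholesterol genes was 0.39 in KO replicate 1 and −1.66 in KO replicate 2. Sqle, squalene epoxidase, was at 347 and 284 CPM in WT and 415 and 69.0 CPM in KO. The median of 16 p53 targets was 0.27 and −1.81, and 6 of them had no count in KO replicate 2. Over all tested genes 4874 of 17494 had no count in that library. Of 17 interferon response genes 9 had no count in KO replicate 2, among them Irf9 and Stat2, which were at 21.3 and 21.4 CPM (Irf9) and 14.6 and 16.5 CPM (Stat2) in WT and 20.9 and 8.04 CPM in KO replicate 1. Other members went the other way. Of the 17, 2 were above WT and 5 below, where 13.7% and 25.8% of all genes were. At an unadjusted p under 0.05 in edgeR 3 were higher and none lower. DESeq2 called 2 of the 17 higher, where it called 0.766% of all genes higher.

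Single genes showed how far this went. Among genes at a mean of 50 CPM or more, Tm4sf1, a tetraspanin-like surface protein, was at 85.5 and 85.1 CPM in WT and 167 CPM in KO replicate 1 and had no count in KO replicate 2, where 3 counts would be 0.166 CPM. Kpna2, an importin, was at 119 and 127 CPM in WT, 128 CPM in KO replicate 1 and 0.0554 CPM in KO replicate 2, and Anxa8, an annexin, at 429 and 276 CPM in WT, 288 CPM and 0.222 CPM. Ednrb, Dusp6 and Kctd11 also had no count in KO replicate 2. Several of these genes were lower in KO replicate 2 than in KO replicate 1 in the other populations too. Tm4sf1 was at 99.1 and 24.4 CPM in pBCSP KO and 133 and 25.4 CPM in BCSP KO. Kctd11 was at 88.8 and 5.24 against 75.4 and 11.9 CPM, and Kpna2 at 103 and 20.6 against 135 and 52.0 CPM. Ednrb, at 1.07 and 1.27 CPM in pBCSP KO, did not follow there. In the other direction, Rreb1, a zinc-finger factor of Ras signalling, was at 7.66 and 10.9 CPM in WT, 4.02 CPM in KO replicate 1 and 579 CPM in KO replicate 2. Malat1, a nuclear noncoding RNA, was at 467 and 982 CPM in WT and 477 and 3487 CPM in KO, and Mmp13, the collagenase of hypertrophic cartilage, at 142 and 246 against 34.8 and 592 CPM. Malat1 was at 486 and 1547 CPM in pBCSP KO and 732 and 701 CPM in BCSP KO. Mmp13 was lower in KO replicate 2 than in KO replicate 1 in both of these populations. These genes were chosen for the difference between the KO libraries, which has no test.

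Deposited H3K4me3 peak lists of SSC, 1 per genotype, gave a readout of promoter state at the genes without RNA in KO replicate 2. H3K4me3 marks starts of active or poised genes, and the WT and KO lists held 33510 and 42399 peaks. Of 11890 tested genes with a RefSeq start, those with counts in the other 3 SSC libraries were taken. At a mean WT level of 1 to 3 CPM, 81.9% of the 745 genes without a count in KO replicate 2 had a KO peak over a start, against 90.1% of the 588 with counts. At 3 to 10 CPM it was 92.0% of 587 against 95.1% of 1557, and at 10 to 30 CPM 95.8% of 214 against 98.1% of 2398. Most genes without a count thus had a peak in the KO list, a smaller share than among genes with counts at each of these levels. At 30 to 100 CPM it was 89.5% of 38 against 99.1% of 2356. The WT list gave 77.7% against 87.6% at 1 to 3 CPM, and 84.2% against 98.9% at 30 to 100 CPM, so a gap in the same direction was present in the WT list too. Of the 8 genes chosen as lowest in KO replicate 2 against KO replicate 1, 6 had a listed start, and 5 of these, Dusp6, Ednrb, Kctd11, Kpna2 and Anxa8, had a peak over it in both lists. Tm4sf1 had none in either list. Paxip1 had a peak over its start in both.

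Markers of other cell types differed widely in level and moved with some of these results. Leukocyte markers summed to 17.4 and 16.3 CPM in WT and 18.4 and 77.7 CPM in KO over 20 genes. Ptprc and Csf1r were at or near 0, so the higher sum in KO replicate 2 came from other members. Of the 14 tested, 2 were above WT and none below, and 9 had no count in KO replicate 2, where 4874 of all 17494 genes had none. At an unadjusted p under 0.05 in edgeR 2 were higher, where 5.71% of all genes were, and DESeq2 called 1 higher. Endothelial markers summed to 65.6 and 91.9 CPM in WT and 95.2 and 77.9 CPM in KO, with Cdh5 at 0 to 0.288 CPM. Globin and other erythroid genes summed to 164 and 92.6 CPM in WT and 58.2 and 72 CPM in KO. Muscle genes summed to 86.9 and 46.8 CPM in WT and 140 and 167 CPM in KO, of which Tnni2, a fast-twitch troponin, gave 10.3 and 3.34 against 26.1 and 117 CPM, and Myod1 and Pax7 were at or near 0. Tendon genes were the most abundant of these lists, with sums of 9534 and 7983 CPM in WT and 13198 and 4650 CPM in KO, and 4 of 10 were below WT and none above. This list includes Egr1, also an immediate early gene, and Fmod, also a cartilage matrix gene. Its sums are therefore not a measure of tendon cells alone. Osteoclast genes summed to 502 and 377 CPM in WT and 561 and 142 CPM in KO, with 2 of 5 below WT and 1 above and medians of 0.16 and −3.39. Over all genes 25.8% were below and 13.7% above.

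Among the lists of other cell types, Schwann cell markers had the lowest medians. Of 12 genes 11 were below WT and 1 above, where 25.8% and 13.7% of all genes were. The medians were −1.35 and −3.88 and the sums 2990 and 3846 CPM in WT and 1827 and 858 CPM in KO. Mbp, myelin basic protein, was at 618 and 697 CPM in WT and 210.4 and 0.222 CPM in KO, and Sox10, the glial lineage factor, at 29.3 and 51.4 CPM in WT, 8.87 CPM in KO replicate 1 and 0 in KO replicate 2. S100b, which cartilage cells also express, was the member above WT, at 75.2 and 43.6 against 131 and 168 CPM. In such bulk libraries fewer cells of a type and less RNA per cell cannot be told apart. Gjc3, among the 12 genes below WT, is a gene of the same cells, and the part of Schwann cells in the other genes below WT was not tested. Pericyte markers summed to 712 and 884 CPM in WT and 1213 and 2088 CPM in KO, and Ndufa4l2, which is also a HIF target, made up most of the KO sums. Rgs5, a signalling regulator of pericytes, was at 23.1 and 64.3 against 14.2 and 15.5 CPM and Acta2, smooth muscle actin, at 102 and 240.4 against 76.2 and 0.0554 CPM, both below WT.

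The same contrast in pBCSP and BCSP was set beside that in SSC. A test of the KO effect in SSC against the mean KO effect in pBCSP and BCSP called 0 of 17494 genes (0%) in edgeR, with a smallest adjusted p of 1.00, 491 genes (2.81%) at an unadjusted p under 0.05 and 0 calls (0%) in DESeq2. None of the 24 genes chosen above was called. Of the 12 above WT, 11 had a fitted difference above 0 in both other populations, and of the 12 below WT, 10 had one below 0 in both. Over all genes at 10 CPM or more that did not overlap in SSC, these shares were 75.1% and 73.1%, so most genes of either kind kept their sign. The labels do not say whether same-numbered libraries of SSC, pBCSP and BCSP came from the same animals. The populations are therefore not known to be independent in these shares or in the test. Car9 had fitted log2 differences of 2.55 ± 0.50 (SE) in SSC, 2.03 ± 0.49 in pBCSP and 2.43 ± 0.50 in BCSP, and Ndufa4l2 of 2.59 ± 0.50, 2.19 ± 0.50 and 2.3 ± 0.50. Smoc2 had 2.06 ± 0.32 in SSC, 1.85 ± 0.32 in pBCSP and 0.53 ± 0.31 in BCSP. Mest had 1.31 ± 0.26, 0.83 ± 0.26 and −0.26 ± 0.26, and it was the one gene above WT whose sign turned in BCSP. Gjc3 had −1.78 ± 0.45 in SSC, 0.68 ± 0.44 in pBCSP and 0.04 ± 0.44 in BCSP, and Tspan17 −2.03 ± 0.52, 0.78 ± 0.50 and 0.49 ± 0.50, both below 0 in SSC alone. The test of the difference in edgeR gave all 6 of these genes an adjusted p of 1.00.

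List medians of the fit were compared in the same way, as values. Lower glycolysis had 1.30 in SSC, 1.28 in pBCSP and 1.73 in BCSP, and cartilage collagens 0.81, 1.14 and 1.59. G2 and M phase genes had −0.94, −0.52 and 0.18, so BCSP was on the other side of 0. Osteoblast genes had −1.44, −1.43 and −0.20, and Schwann cell genes −2.27, −0.71 and −1.39. Differences between the populations in these medians were not tested.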

How the data were processed

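Polyadenylated RNA of sorted limb SSC was measured in 4 libraries. The authors deposited a matrix of raw counts per gene for 55487 Ensembl genes, 55141 of them with a symbol. The submitters' processing notes name GRCm38, MACS2 2.2.6, SAMtools 1.9, featureCounts 2.0.1, Bowtie2 2.3.5.1 and Trim Galore 0.6.6. Not given in the sources used here are the assay each tool served, whether reads were aligned across introns, how reads with several matches were treated and whether strand was used in counting. Overlapping and antisense genes therefore cannot be told apart. The H3K4me3 peak lists were deposited with a fold enrichment ratio and −log10 p per peak, and only peak positions were used, counted as present where a peak covered a RefSeq start (or lay within 1000 bases of it).

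Counts of the 12 RNA libraries were filtered with filterByExpr, scaled by TMM and fitted with edgeR 4.0.16 (limma 3.58.1, R 4.3.3), with 1 group per population and genotype and 6 residual degrees of freedom. The test was the quasi-likelihood test, with Benjamini-Hochberg adjustment over 17494 genes at 0.05. DESeq2 1.42.0, other scalings and filters, the 4 SSC libraries alone, a replicate block, limma voom with sample quality weights and leaving out each library were alternatives, and each KO library alone for the counts without overlap was added after seeing the data. Coordinates of genes and promoters are those of RefSeq GRCm38.p6, matched by symbol.

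The 41 lists (589 names, 586 found) and the rules were chosen with earlier results of these data known. Named are Paxip1, up to 8 list members by mean CPM at 10 CPM or more with central genes of each list, the 12 genes each way by smallest unadjusted p, and the 8 each way by largest difference between KO libraries at 50 CPM or more. Chosen after their values were seen were Gapdh, Pdk1, Ndufa4, Epyc, Ihh, Ank, Lepr, Crtap, Lox, Atf4, Kif20a, Id4, Ccn2, Stat2, Pdk4, Sox10, Cdh5, Csf1r, Ptprc, Myod1 and Pax7.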

Additional observations from a re-analysis of the deposited data

How the results depend on the processing

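The count of 0 edgeR calls in SSC KO against WT held under RLE scaling, a minimum of 10 CPM, the 4 SSC libraries alone, robust fitting, sample quality weights and a replicate block, but 395 genes were called with no filter on low counts and 174 by DESeq2. Leaving out 1 library gave 0 to 5908 calls, the latter without KO replicate 1. For the KO effect in SSC against the mean KO effect in pBCSP and BCSP the count was 48 with no filter and 0 to 3582 with 1 library left out, the latter again without KO replicate 1. The cause was not tested. Within a population, same-numbered WT and KO libraries did not deviate together (correlation 0.0024 in SSC, −0.022 in pBCSP and −0.0925 in BCSP). The replicate block gave 0 calls and 1672 genes at an unadjusted p under 0.05 against 1643. Neither covers animals shared between populations within a genotype. Xist had 169, 293 and 293 counts in WT replicate 1 of SSC, pBCSP and BCSP, and 0 in WT replicate 2 of each. The fit treats the 12 libraries as independent, and whether same-numbered libraries shared animals was not tested. Genes above and below WT without overlap numbered 1556 and 1831 at 10 CPM or more, 1754 and 5576 with total counts, and 5499 to 5613 and 6490 to 10013 with 1 KO library at a time. Lists with a median above 0 numbered 12 to 21, and below 0 20 to 29, with 1 SSC library left out. Counting H3K4me3 peaks within 1000 bases raised the shares at 1 to 3 CPM to 82.82% (WT list) and 86.58% (KO list). Some fitted log2 differences turned sign when 1 library was left out, with these ranges: Prrx1 −0.49 to 1.03, Itgav −1.90 to 0.052, Pdgfra −0.49 to 0.081, Hk2 −0.36 to 0.24, Sox9 −0.053 to 0.77, Sp7 −3.12 to 0.14, Hes1 −3.68 to 0.10, Cd200 −0.15 to 0.41, Runx2 −0.59 to 0.46, Vegfa −0.20 to 1.83, Ddx3y −0.25 to 1.02 and Xist −5.07 to 7.19. Xist was also 3.79 with the replicate block and 0.27 with sample quality weights. Of the other values for single genes and lists, 1085 kept direction and side, 83 passed a threshold that the main fit did not and 34 moved by more than the spread. Depth limits single libraries to 0.166 to 0.208 CPM, the level of 3 counts.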
